A study of Mus musculus with 12 samples.

Results

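The mitochondrial solute carrier genes of the mouse (Slc25) were examined for peaks of the chromatin protein CTCF in liver. Members were the protein-coding mouse genes with a symbol made of Slc25a and a number, without Slc25a20, which left 46 of the 21900 protein-coding genes with a position in the RefSeq table. Overlapping peaks of the 6 deposited lists, with a minimum overlap of 1 bp, were joined into sites, and a site belonged to a member when it touched the gene body or the 5 kb on either side of it. This gave 180 sites of 76061 in all. A single site lay near both Slc25a41 and Slc25a23, so there were 181 pairs of a gene and a site. The rule for members used gene symbols and no measured value, but it was chosen with earlier results of these data known.

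SLC25 proteins sit mostly in the inner mitochondrial membrane and exchange adenine nucleotides, phosphate, carboxylates, amino acids, nucleotides, cofactors and metal ions between the mitochondrial matrix and the cytosol. In liver they carry the traffic on which urea synthesis, glucose production, the malate-aspartate shuttle and the export of citrate for lipid synthesis depend. CTCF is a zinc-finger protein that binds a long, GC-rich DNA motif, anchors chromatin loops together with cohesin and marks many domain boundaries.

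All libraries came from livers of male wild-type C57BL6/Ncrl mice aged 3 to 4 months and kept on normal chow. The fed group had free access to food and was collected at ZT16, a time that counts the hours since lights on. The starved group had no food for 24 hours and was collected at ZT13. Feeding state and collection hour therefore cannot be told apart in these samples. Each group had 3 libraries precipitated with a CTCF antibody and 3 input libraries, and the inputs were not analysed here. Whole liver was used, so peaks of hepatocytes and of other liver cells are mixed. Whether each library stands for its own mouse is not stated in the labels, so the p-values cover differences among libraries, which may be technical, and not among animals.

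Among the promoters of members, those of Slc25a22, a glutamate carrier, and Slc25a38, a glycine carrier needed for heme synthesis, overlapped a site called in all 6 libraries. Both also held the core letters of the CTCF motif. They were picked by that rule. Slc25a39, needed for glutathione import, was added after its values were seen. The 250 bases before the RefSeq start whose promoter window lies under the site (build GRCm38.p6, the same assembly as mm10) are shown 5′ to 3′ on the strand of the gene, with each core match in capitals. The stretches are chr7:141437875-141438124 on the minus strand for Slc25a22, chr9:120110132-120110381 on the plus strand for Slc25a38 and chr11:102407518-102407767 on the minus strand for Slc25a39.
Slc25a22: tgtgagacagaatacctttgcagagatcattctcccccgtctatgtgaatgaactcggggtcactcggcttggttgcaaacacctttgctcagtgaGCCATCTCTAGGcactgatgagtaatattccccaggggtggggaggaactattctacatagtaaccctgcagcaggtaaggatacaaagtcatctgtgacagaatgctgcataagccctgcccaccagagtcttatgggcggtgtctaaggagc
Slc25a38: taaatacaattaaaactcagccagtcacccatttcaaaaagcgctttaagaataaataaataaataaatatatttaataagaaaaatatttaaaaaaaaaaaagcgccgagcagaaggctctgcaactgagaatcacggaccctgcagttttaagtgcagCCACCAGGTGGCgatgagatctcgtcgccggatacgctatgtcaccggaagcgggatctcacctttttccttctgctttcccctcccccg
Slc25a39: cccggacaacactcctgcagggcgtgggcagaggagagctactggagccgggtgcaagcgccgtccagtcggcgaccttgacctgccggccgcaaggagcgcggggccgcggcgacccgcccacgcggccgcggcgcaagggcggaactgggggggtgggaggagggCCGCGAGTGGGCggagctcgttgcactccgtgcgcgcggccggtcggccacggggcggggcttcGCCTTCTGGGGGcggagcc

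The core searched was CCNNNAGNNGGC, or GCCNNCTNNNGG when the motif lies on the other strand, and both strands were read over the 300 bases from 250 before to 50 after each start. In Slc25a22 the match was GCCATCTCTAGG, on the strand opposite to the gene, and its first base was at position -154 counted from the start at 1. In Slc25a38 the match was CCACCAGGTGGC at position -90 on the strand of the gene. In both promoters the match fell within the merged site called in all 6 libraries, but peaks of single libraries can be shorter. At Slc25a22 the peak of starved 2 ran from 1 to 351 bp past the start and did not reach the match. Slc25a39 had CCGCGAGTGGGC at position -83, within a site of the 3 fed and 1 starved libraries, and GCCTTCTGGGGG at position -19, outside that site.

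Of 35 members with a RefSeq promoter entry, 45 windows in all, 4 held the core. The fourth was the outermost Slc25a25 promoter, with the match at position 24 and no site over it. Over all 32851 promoter windows the share with a core was 8.61%, and it was 27.99% among the 2594 windows under a site called in all 6 libraries. The windows of 16 members overlapped a site of any kind, 17 windows or 37.8% of the 45, against 26.99% of all promoter windows. They overlapped a site of all 6 libraries in 4 members, namely Slc25a1, Slc25a22, Slc25a38 and Slc25a45, and the windows of Slc25a1 and Slc25a45 held no core. That was 8.89% of the 45 windows, against 7.90% of all windows, and neither share was tested. A match is a description of the letters, not evidence of a binding site.

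The fed peak lists held 56103, 49030 and 74950 peaks in fed 1, fed 2 and fed 3. The starved lists were shorter in every library, with 30752, 23926 and 29866 peaks in starved 1, starved 2 and starved 3. All lists reached down to a similar lowest score, 2.005 to 2.10, in a column whose meaning the lists do not state. Fed 3 was the longest list and starved 2 the shortest, and results that rest on either are given with and without it. List length moves with feeding state, and its part in the counts below was examined by cutting all lists to the same number of peaks. Read depth per library was not given in the sources used here, so no counting interval can be attached to a peak.

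Most Slc25 genes had CTCF peaks in fed liver, and fewer of them did in every starved library. Peaks were found at 41, 40 and 43 of the 46 genes in fed 1, fed 2 and fed 3. In starved 1, starved 2 and starved 3 they were found at 33, 28 and 32 genes. The groups did not overlap, with means of 41.3 ± 1.53 (SD, n = 3) and 31 ± 2.65 (SD, n = 3), a difference of 10.3 genes. The share of members with a peak was 87.0 to 93.5% in fed and 60.9 to 71.7% in starved libraries. Over all protein-coding genes the same shares were 67.3 to 74.3% and 48.9 to 56.7%. When every list was cut to its 23926 highest-scoring peaks, the means were 28 genes in fed and 29 in starved libraries, so the difference became -1 gene.

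Classed by their most widely called site, 28 of the 46 members (60.9%) had a site in all 6 libraries, against 47.7% of all protein-coding genes. A further 5 members had sites in all 3 fed libraries of which none was called in more than 2 starved libraries, namely Slc25a14, Slc25a25, Slc25a27, Slc25a29 and Slc25a42 (background 10.9%). In 7 members, or 15.2%, sites were called in all 3 fed libraries and no starved library had any peak: Slc25a4, Slc25a11, Slc25a12, Slc25a18, Slc25a36, Slc25a41 and Slc25a51. The background for that class was 7.4% of genes. Slc25a3, Slc25a31 and Slc25a32 had peaks in at most 2 fed libraries (background 8.5%). Slc25a2, Slc25a40 and Slc25a54 had no site in any list (background 25.5%). These shares were not tested against the background. Members were somewhat longer than other genes, with a median of 21078.5 bp against 17146 bp, and had 3.93 sites on average against 2.99.

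At the level of sites, 100 of the 180 were called in all 3 fed libraries (55.6%, against 59.04% of all sites). Of all 180, 45 sites (25%) were called in all 6 libraries, where the background over all sites was 29.1%. A further 29 sites (16.1%) were called in all 3 fed libraries and no starved library, and are called fed-only below, against a background of 17.2%. Both shares lay near or below the background, so they do not set the members apart. The other sites with all 3 fed libraries had peaks in 2 starved libraries (14 sites, 7.78% against 6.30% of all sites) or in 1 (12 sites, 6.67% against 6.46%). Sites of fed libraries alone, in any number of them, made up 105 of the 180, or 58.3%. The background was 57.2% of all sites and 59.1% of the sites of any protein-coding gene. Of the 105, 55 were called in fed 3 alone. These were 30.6% of member sites, against 24.7% of all sites and 26.5% of the sites of any protein-coding gene. Neither the members nor the 76061 sites as a whole included a site called in all 3 starved libraries and no fed library (background 0%).

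For a fed-only site the two-sided Fisher exact test of 3 of 3 against 0 of 3 libraries gave p = 0.1, the smallest p this design allows. After Benjamini-Hochberg adjustment over all 76061 sites the lowest value was 0.582, and 0 sites had an unadjusted p under 0.05. The fed-only sites are therefore a description. None of the 29 was among the 23926 highest-scoring peaks of any library, and with lists of equal length the number of fed-only Slc25 sites was 0 (0.928% of all sites). Without fed 3 there were 30 fed-only sites (background 22.95% of all sites), and without starved 2 there were 29 (background 17.5%).

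The fed-only sites were the low-ranked ones. Each peak was given a percentile by its score within its own list, where 100 is the highest. The median of the mean percentile over the 3 fed lists was 28.03 for the 29 fed-only member sites, with a range of 16.02 to 50.7. For the 26 sites kept in 1 or 2 starved libraries it was 43.9 (26.8 to 61.0), and for the 45 sites of all 6 libraries 81.7 (53.8 to 99.3). Over all sites of the series the medians were 33.4 for fed-only sites and 81.1 for sites of all 6 libraries. Of the 6 member sites at or below the 20th percentile, 0 had a peak in any starved library. From there the number rose to 11 of 29 between percentiles 20 and 40, to 16 of 21 between 40 and 60, to 18 of 18 between 60 and 80 and to 26 of 26 above 80. The corresponding shares over all sites were 8.02%, 18.7%, 64.5%, 99.3% and 100%.

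**Figure D1:**
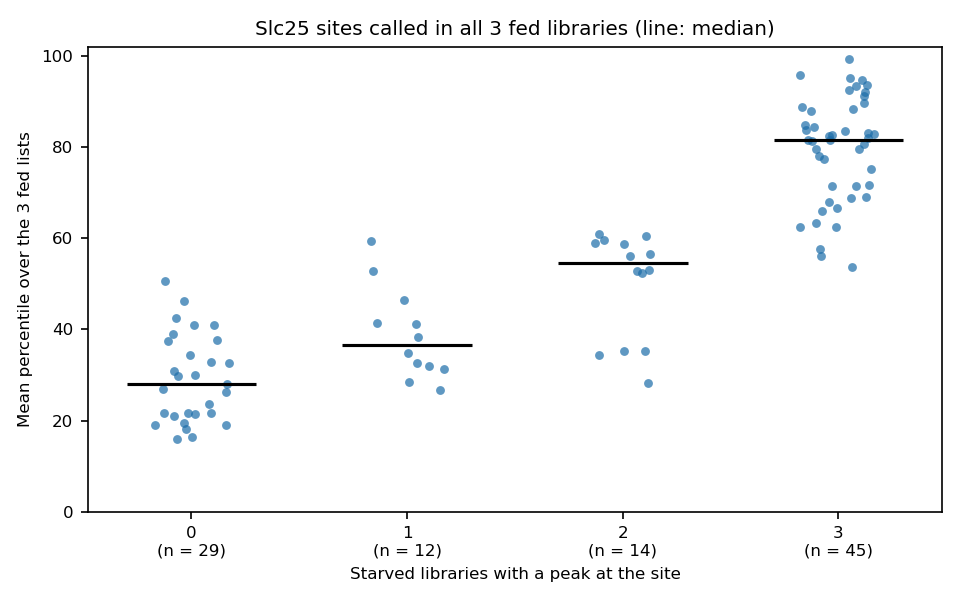
Mean percentile of the peak score over the 3 fed lists (vertical axis, 100 = highest) for the 100 Slc25 sites called in all 3 fed libraries, by the number of starved libraries with a peak (horizontal axis); each point is a site and each line a median. The median is 28.03 with no starved library and 81.7 with all 3.

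The carriers of adenine nucleotides and phosphate held the Slc25 site with the highest fed scores and also members without a starved peak. Of the 8 genes, 3 had a site in all 6 libraries and 1 had sites in the fed and some starved libraries. Another 2 had a fed-only site and no starved peak, and 2 had peaks in at most 2 fed libraries. Slc25a5 (chrX:36795597-36798808, plus strand) encodes the adenine nucleotide translocase Ant2, which exchanges ATP for ADP. Its site at chrX:36795737-36796701, inside the gene and close to the start, had percentiles of 99.2, 99.5 and 99.2 in the fed lists. These correspond to positions 443, 263 and 624 from the top of the lists. In the starved lists the percentiles were 95.7, 67.4 and 92.6. The site was thus near the top of the list in 5 libraries and lower in starved 2. A second Slc25a5 site, chrX:36794718-36795040 upstream of the gene, had percentiles of 42.8, 17.9 and 54.04 in the fed lists, 12.2 in starved 3 and no peak in starved 1 or starved 2.

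Slc25a4, which encodes the translocase Ant1 of heart and muscle, had no site in its body. Its only site, chr8:46202453-46202789, lay 4379 bp downstream of the gene and had percentiles of 20.7, 27.7 and 55.0 in the 3 fed lists and no starved peak. Slc25a3, the phosphate carrier, had 3 sites near its start, and none of them was called in fed 2 or in any starved library. The best ranked of these, chr10:91123377-91123704, had percentiles of 14.04 in fed 1 and 30.04 in fed 3. Slc25a31, the translocase of the testis, had 1 site, called in fed 3 at percentile 2.07 and in starved 1 at 2.28. All of these peaks were in the lower part of their lists apart from fed 3 at Slc25a4.

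The ATP-Mg/phosphate carriers Slc25a23, Slc25a24, Slc25a25 and Slc25a41 adjust the adenine nucleotide content of the matrix. Slc25a25 (chr2:32414487-32451470, minus strand) had 12 sites, the most of any member, and none was called in all 6 libraries. The fed lists had peaks at 5, 4 and 11 of them, starved 1 at 2, and starved 2 and starved 3 at 0. Of its fed-only sites, chr2:32423753-32424081 overlapped an inner promoter window and had percentiles of 20.2, 6.27 and 54.04, and chr2:32438384-32438818 had 42.97, 39.1 and 56.8. Another site of all 3 fed libraries, chr2:32410218-32410544, had percentiles of 47.1, 29.8 and 47.2 and a peak in starved 1 at 7.48. Slc25a23 had 3 fed-only sites and 1 site of all 6 libraries, chr17:57060228-57060971, 319 bp upstream of the gene. That site had percentiles of 82.7, 84.9 and 80.9 in fed and 74.8, 47.2 and 65.6 in starved lists. The Slc25a23 fed-only site at chr17:57038994-57039379, which lies in Slc25a41, had percentiles of 37.3, 31.7 and 53.8. Those at chr17:57051529-57051992 and chr17:57062549-57062959 had 44.1, 34.2 and 49.2, and 22.003, 8.10 and 35.2. Slc25a24 kept its single site of all 3 fed libraries in every starved library, with percentiles of 82.0, 91.7 and 90.2 in fed and 60.9, 83.6 and 69.6 in starved lists.

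Among the carriers of di- and tricarboxylates, 5 of 6 genes had a site in all 6 libraries, and 10 of the 17 sites called in all 3 fed libraries were called in all 6 (49.3% over all sites). Slc25a1 (chr16:17925211-17928219, minus strand), the citrate carrier that feeds fatty acid synthesis, had 2 such sites. At chr16:17921118-17922266, 2945 bp downstream of the gene, the percentiles were 81.2, 82.4 and 87.7 in the fed and 58.2, 35.6 and 61.8 in the starved lists. At chr16:17928431-17929373, which reaches into the promoter window, they were 69.7, 61.3 and 76.4 in the fed and 33.6, 25.3 and 32.4 in the starved lists. Both sites had lower percentiles in every starved list. Percentiles from lists of different length show no change by themselves: over all shared sites the median percentile was 77.3 to 85.2 in the fed and 52.9 to 63.6 in the starved lists.

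Slc25a10 (chr11:120491837-120501161, plus strand), which exchanges malate or succinate for phosphate, had 5 sites, all of them called in all 3 fed libraries. The best of these, chr11:120489018-120489774, lay 2063 bp upstream and had percentiles of 90.4, 96.8 and 93.5 in fed and 94.5, 89.6 and 93.0 in starved lists, so the groups overlapped. Inside the gene, chr11:120492030-120492830 had percentiles of 52.8, 44.2 and 73.0 in fed lists, 12.5 in starved 1, 5.99 in starved 3 and no peak in starved 2. The site at chr11:120488534-120488841, in the neighbouring gene Mrpl12, had 28.3, 14.7 and 51.2 in fed lists and 16.2 in starved 3. Its fed-only sites, chr11:120490581-120491041 and chr11:120500172-120500766, had percentiles of 9.64, 5.14 and 34.3, and of 24.2, 1.81 and 31.2. The number of starved libraries with a peak followed the fed rank at this gene, from the best-ranked site, kept in all 3 starved libraries, to the 2 lowest, called in none.

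Slc25a11, the oxoglutarate-malate carrier of the malate-aspartate shuttle, had a single site, chr11:70646795-70647056, over the edge of its promoter window. It was fed-only, with percentiles of 10.5, 5.12 and 49.6. Slc25a21, the oxodicarboxylate carrier, had 3 sites called in every library inside its long body and 1 that was fed-only, at chr12:57184781-57185322 with percentiles of 37.6, 33.05 and 52.0. The best of the 3, chr12:56985957-56986671, had 90.1, 91.6 and 94.3 in fed and 95.2, 79.8 and 92.8 in starved lists. Slc25a34 and Slc25a35, whose substrates are less well defined, had 3 sites and 1 site in all 6 libraries. Slc25a35 also had a fed-only site over an end of the gene, chr11:68967432-68968127, with percentiles of 20.3, 36.7 and 59.9.

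**Figure D2:**
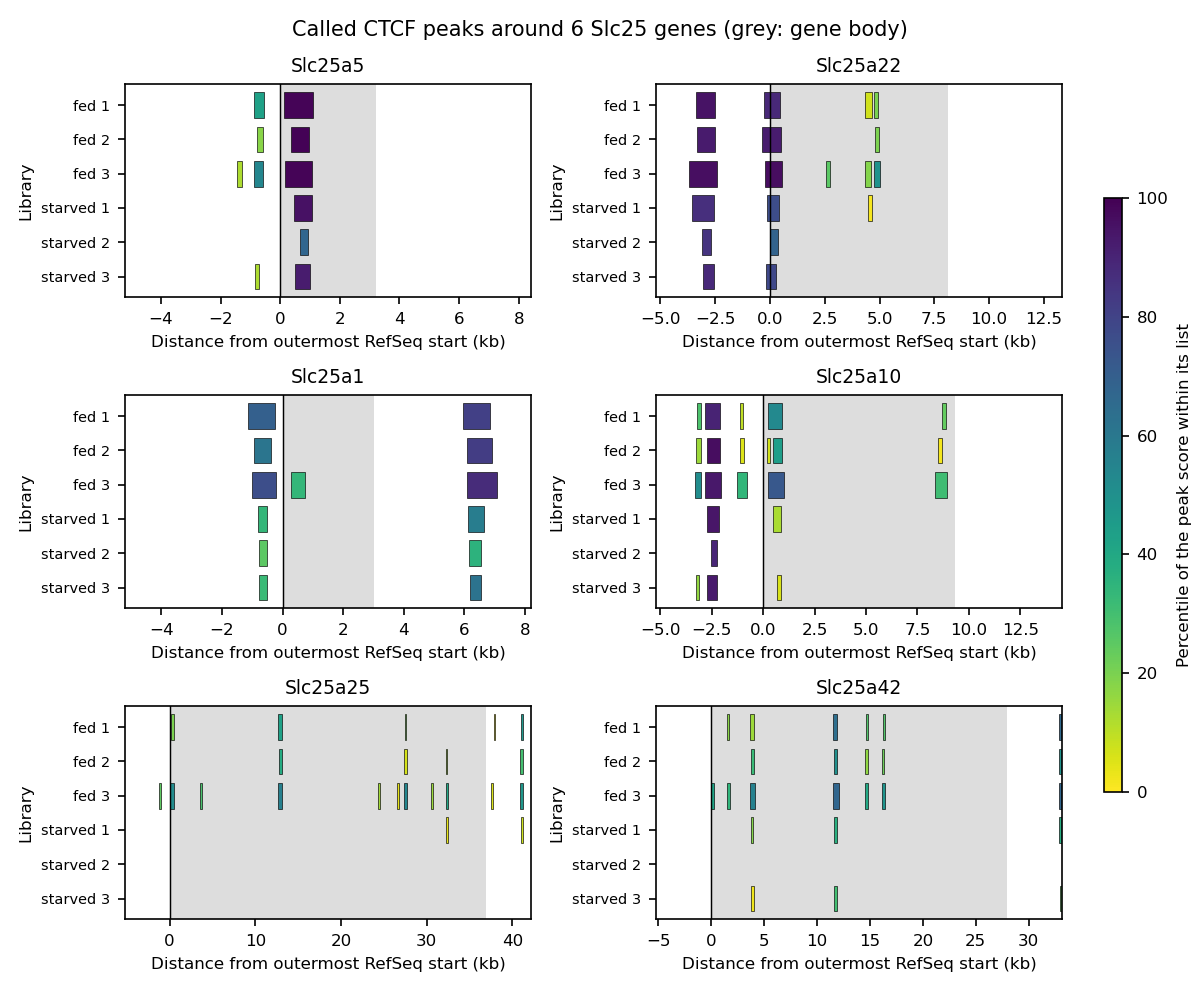
Called peaks (bars, coloured by percentile of the score within the list) in the 6 libraries around Slc25a5, Slc25a22, Slc25a1, Slc25a10, Slc25a25 and Slc25a42, by distance in kb from the outermost RefSeq start; grey marks the gene body. The peak inside Slc25a5 is at percentile 99.2 to 99.5 in the fed lists, while starved 2 has no peak at Slc25a25 or Slc25a42.

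The amino acid carriers included genes with sites in every library and genes with no starved peak. Of the 10 genes, 6 had a site in all 6 libraries, 1 had sites in fed and some starved libraries, 2 had fed-only peaks and 1 had no site. Slc25a13 encodes citrin, the aspartate-glutamate carrier of liver, which supplies aspartate for urea synthesis. Its site at chr6:6136600-6137388, inside the gene, had percentiles of 82.7, 73.1 and 90.0 in fed and 75.8, 38.4 and 67.0 in starved lists. A second site of all 3 fed libraries, chr6:6183499-6183884, had 35.5, 17.9 and 51.1 and was called among starved libraries in starved 3 alone, at percentile 0.0385. The fed-only sites of Slc25a13 were chr6:6049469-6049774, with 7.04, 1.21 and 39.8, and chr6:6113816-6114060, with 24.7, 0.817 and 28.8. In Slc25a12, the aspartate-glutamate carrier of muscle and brain, the only site of all 3 fed libraries was fed-only, chr2:71344293-71344574, with percentiles of 28.8, 13.5 and 36.5.

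Slc25a15 (chr8:22375550-22398621, minus strand), the ornithine carrier of the urea cycle, had 9 sites. The 1 site called in all 6 libraries, chr8:22399529-22400015, lay 908 bp upstream and had percentiles of 67.9, 46.3 and 73.4 in fed and 14.7, 17.7 and 26.3 in starved lists. Of its sites inside the gene, 2 were called in all 3 fed libraries, and chr8:22376895-22377461 had 52.5, 53.9 and 72.8 in fed lists, 23.7 in starved 1 and 12.5 in starved 3. The second of these, chr8:22390901-22391287, had 59.2, 35.5 and 64.6 in fed lists, 49.9 in starved 1 and 15.9 in starved 3. Neither was called in starved 2. The 5 further sites inside the gene were called in 1 or 2 fed libraries and in no starved library. The fed-only site at chr8:22403268-22403602, 4647 bp upstream, had percentiles of 15.6, 5.49 and 37.3.

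The 2 glutamate carriers Slc25a22 and Slc25a18 differed in their sites. Slc25a22 (chr7:141429749-141437874, minus strand) had 2 of the highest-ranked sites of all members, both of them also in the neighbouring gene Pidd1. The first, chr7:141437311-141438240, covered the start and the promoter shown above, with percentiles of 88.7, 92.3 and 96.7 in fed and 76.6, 68.4 and 78.5 in starved lists. The second, chr7:141440314-141441558, lay 2440 bp upstream and had 95.2, 92.7 and 96.4 in fed and 86.4, 85.2 and 88.6 in starved lists. A fed-only site inside the gene, chr7:141432853-141433145, had 20.3, 19.5 and 49.3. Slc25a18 had no starved peak. Its fed-only sites were chr6:120771424-120771682, with 15.9, 9.18 and 31.8, and chr6:120792986-120793263, with 34.1, 16.2 and 48.1.

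Slc25a38 had its site of all 6 libraries over the start, chr9:120110174-120110761, with percentiles of 76.8, 81.2 and 86.2 in fed and 65.5, 54.5 and 64.8 in starved lists. Slc25a44, a carrier of branched-chain amino acids, had its best site outside the gene in Pmf1, chr3:88406783-88407642, with 93.5, 81.2 and 90.5 in fed and 85.0, 73.7 and 80.3 in starved lists. Slc25a29, a carrier of basic amino acids, had 1 site of all 3 fed libraries, over its start at chr12:108835414-108836329. It had percentiles of 29.1, 15.8 and 52.7 in fed lists and 4.83 in starved 3. Slc25a48, listed here with the amino acid carriers and known for choline transport, had 2 sites called in every library and 1 that was fed-only, at chr13:56435637-56436140 with 34.7, 8.85 and 46.7.

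Of the 11 carriers of nucleotides, cofactors and glutathione, 6 had a site in all 6 libraries. Slc25a17, a peroxisomal member that carries coenzyme A, FAD and NAD, had a site inside the gene at chr15:81355139-81355893. Its percentiles were 96.5, 96.1 and 94.98 in fed and 81.4, 88.0 and 88.4 in starved lists, so it was in the upper part of every list.

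The pyrimidine nucleotide carriers Slc25a33 and Slc25a36 differed in their sites. Slc25a33 had 2 sites in all 6 libraries, chr4:149751976-149753024 with 87.9, 78.9 and 82.5 in fed and 67.6, 33.4 and 59.7 in starved lists, and chr4:149772235-149773019 with 63.7, 70.7 and 72.3 and 9.89, 41.5 and 47.5. A further site, over its start at chr4:149773402-149774372, had 36.1, 34.5 and 35.2 in fed lists, 7.96 in starved 1 and 4.44 in starved 3. Slc25a36 had 3 sites and no starved peak. The 1 called in all 3 fed libraries, chr9:97081188-97081398, had percentiles of 25.05, 26.8 and 13.2. It was the only fed-only member site whose percentile was not highest in fed 3, as it was at the other 28. Over all fed-only sites of the series 93.5% had their highest percentile in fed 3. Fed 3 is the longest list, so percentile and position from the top can differ in order. Positions in fed 1, fed 2 and fed 3 were 42537, 48140 and 51558 at the Slc25a10 site chr11:120500172-120500766. At the Slc25a11 site they were 50169, 46515 and 37797.

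Slc25a42 (chr8:70184340-70212281, minus strand), the mitochondrial coenzyme A carrier, had 7 sites, 5 of them called in all 3 fed libraries, and none was called in starved 2. Sites with peaks in both starved 1 and starved 3 were chr8:70178946-70179438 (66.4, 49.3 and 67.3 in fed, 37.8 and 24.0 in these starved lists), chr8:70200211-70200806 (63.9, 50.1 and 67.5, then 36.99 and 30.4) and chr8:70208176-70208615 (14.7, 32.4 and 56.3, then 18.6 and 2.52). The fed-only sites were chr8:70195874-70196125, with 27.2, 22.3 and 48.2, and chr8:70197471-70197736, with 27.4, 16.5 and 40.2. The pattern at this gene rests on starved 2: of the 14 member sites with peaks in exactly 2 starved libraries, 12 lacked starved 2, as did 83.4% of such sites in the whole series. Without starved 2 the number of Slc25 sites called in all remaining libraries was 57 rather than 45. Over all sites that share was 34.3% rather than 29.1%.

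Slc25a51, the carrier of NAD, had 4 sites and no starved peak. Its site of all 3 fed libraries, chr4:45392180-45392462, lay 3461 bp outside the gene and had percentiles of 4.13, 20.6 and 38.3. Slc25a16 had a fed-only site near its start, chr10:62920700-62921077, with 8.15, 20.1 and 36.1. Slc25a26, the carrier of S-adenosylmethionine, had 3 sites called in every library and another that was fed-only, chr6:94597158-94597534, with 46.8, 17.2 and 48.4. For Slc25a39 the site of all 6 libraries was not the one at its promoter but chr11:102411502-102412368, 2827 bp upstream, with 79.9, 78.0 and 89.3 in fed and 77.1, 79.0 and 81.0 in starved lists. At the promoter, chr11:102407560-102408054 had 20.4, 19.5 and 40.3 in fed lists and 23.1 in starved 1.

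Both mitoferrins, which bring iron into mitochondria for heme and iron-sulfur clusters, had 2 sites each in all 6 libraries. Slc25a37 (mitoferrin 1) had its best site over an end of the gene, chr14:69241027-69242164, with percentiles of 93.8, 86.0 and 93.7 in fed and 81.7, 77.4 and 79.4 in starved lists. A second, chr14:69237893-69238828, had 76.7, 85.9 and 91.9 in fed and 78.3, 77.6 and 79.4 in starved lists. Also at Slc25a37, chr14:69250001-69250285 had 33.3, 40.9 and 49.4 in fed lists and 4.29 in starved 3, and the fed-only site chr14:69249397-69249650 had 30.8, 25.8 and 36.1. Slc25a28 (mitoferrin 2) had sites at chr19:43665328-43666193, with 78.3, 89.9 and 82.8 in fed and 62.6, 55.4 and 42.3 in starved lists, and at chr19:43675179-43676012, 173 bp upstream, with 80.6, 91.9 and 93.7 and 90.6, 48.8 and 74.96. The iron carriers thus kept a site in every library.

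Of the 3 genes like the uncoupling proteins, Slc25a30 had 3 sites in all 6 libraries, while Slc25a14 and Slc25a27 lacked peaks in starved 2. Slc25a14 had a fed-only site, chrX:48637102-48637358, with percentiles of 30.2, 31.7 and 51.5. Of the remaining 6 members, 5 had a site in all 6 libraries. Slc25a47, a carrier made mainly in liver, had that site 1226 bp upstream at chr12:108847922-108848607, with percentiles of 59.6, 44.4 and 68.7 in fed and 54.1, 6.70 and 25.4 in starved lists. A second Slc25a47 site inside the gene, chr12:108852417-108852949, had 54.02, 57.6 and 66.9 in fed lists and 19.6 in starved 1. Slc25a43 had a fed-only site at chrX:36774456-36774707, with 12.0, 22.9 and 35.8. The best-ranked fed-only site of any member was at Slc25a53, chrX:136978677-136978968, 2148 bp downstream, with 49.1, 37.99 and 65.0.

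To compare feeding states on an equal number of sites, the 22131 sites called in all 6 libraries were ranked among themselves in each library, giving a shared-site rank from 0 to 100. Among the 45 Slc25 sites, 3 (6.67%) ranked lower in every starved than in every fed library, where the background was 7.37%. Another 2 (4.44%) ranked higher in every starved library, where the background was 8.51%, and in 40 the groups overlapped. Both shares lay below the background. The median difference, starved minus fed, was 1.31 rank points for the members and 0.38 for all shared sites, and 22 member sites were below 0 and 23 above. In the two-sided exact permutation test per site the smallest possible p was 0.1, the lowest Benjamini-Hochberg adjusted p over the shared sites was 0.63 and 0 sites had an unadjusted p under 0.05.

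**Figure D3:**
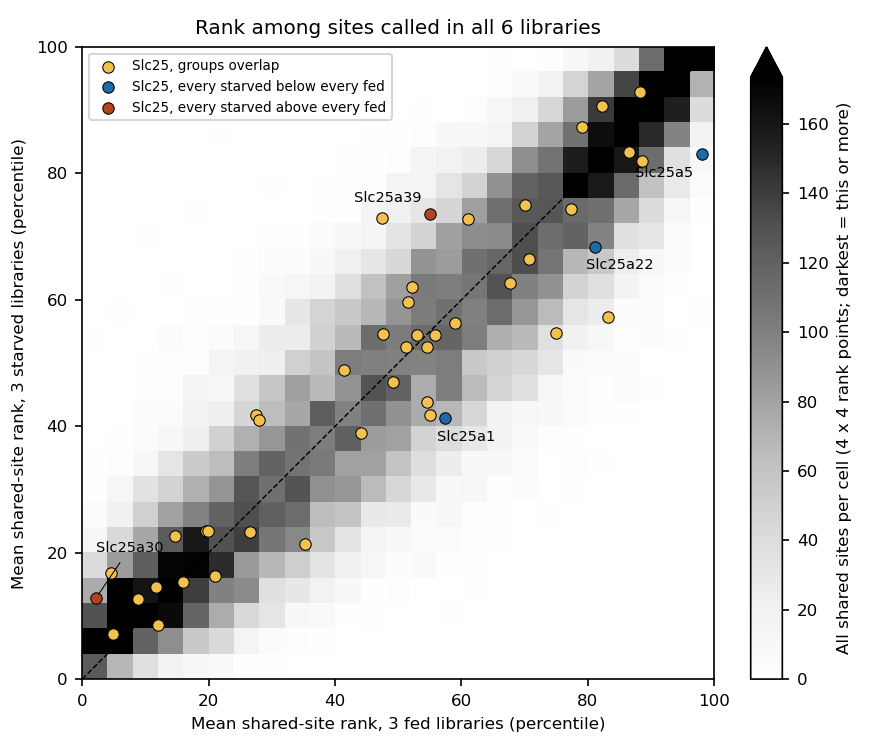
Mean shared-site rank in the 3 fed (horizontal) and 3 starved libraries (vertical) for the 45 Slc25 sites called in all 6 libraries (points) over the count of all 22131 such sites (grey); the dashed line marks equal rank. Sites of Slc25a1, Slc25a5 and Slc25a22 rank lower and sites of Slc25a39 and Slc25a30 higher in every starved library, while 40 overlap.

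The 3 sites that ranked lower belonged to Slc25a1, Slc25a5 and Slc25a22. The downstream Slc25a1 site had shared-site ranks of 52.5, 61.3 and 58.5 in fed and 42.7, 31.9 and 49.2 in starved libraries. Its means were 57.4 ± 4.47 and 41.3 ± 8.70 (SD, n = 3 each), a difference of -16.15, and without starved 2 it was -9.77. Values without starved 2 are ranks among the 26125 sites called in all remaining libraries. They therefore differ in the set of ranked sites as well as in the library left out. The Slc25a5 site had 98.0, 98.8 and 97.2 in fed and 94.0, 65.2 and 90.0 in starved libraries. Its difference of -14.9 rank points rested largely on starved 2, and it was -5.06 without that library. The Slc25a22 site over the start had 71.5, 83.0 and 88.8 in fed and 67.8, 66.3 and 71.3 in starved libraries, a difference of -12.6. With peaks kept only at or above the median score, 30.4, sites were ranked among 9577 shared sites, so the differences are on another scale. They were -33.9 for Slc25a5 and -27.9 for Slc25a22. The starved 2 scores of these sites, 38.1 and 38.5, lay not far above that minimum. The Slc25a1 site was no longer called in all 6 libraries. For Slc25a22 the lowest fed value, 71.5, and the highest starved value, 71.3, nearly met.

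The 2 sites that ranked higher were at Slc25a39 and Slc25a30. The upstream Slc25a39 site had shared-site ranks of 49.4, 51.6 and 63.8 in fed and 68.5, 77.5 and 74.7 in starved libraries, a difference of 18.6. The Slc25a30 site, chr14:75753771-75754552 in the neighbouring gene Cog3, was near the bottom of the shared sites, with 4.02, 0.816 and 1.78 in fed and 17.9, 8.75 and 11.9 in starved libraries. Its difference was 10.6, and 17.3 without starved 2, there ranked among the larger set of 26125 sites. From ranks this low a site can move up much further than down, and the background was not matched for starting rank. With the score minimum or with lists of equal length this site was no longer called in all 6 libraries. The other Slc25a30 sites of all 6 libraries went the other way, with overlapping groups. The difference was -13.8 at chr14:75760752-75761678 and -20.2 at chr14:75767642-75768703. A larger positive difference, 25.6, was found for the Slc25a34 site at chr4:141618094-141619190, where the groups overlapped. It was the most positive among the 45 sites but not the largest in size, and was chosen after its value was seen.

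**Figure D4:**
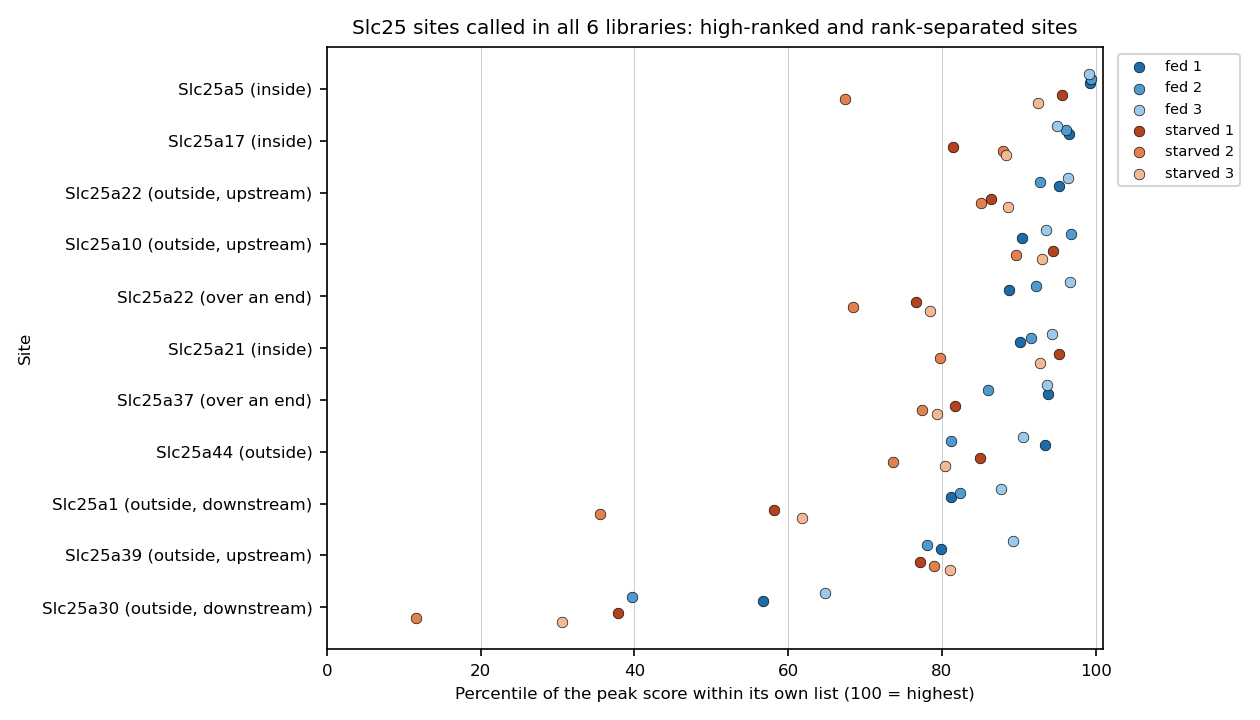
Percentile of the peak score within its own list (horizontal axis, 100 = highest) in each of the 6 libraries (points) for high-ranked Slc25 sites and those whose shared-site ranks did not overlap between groups (rows). The Slc25a5 site lies at 99.2 to 99.5 in fed lists and at 67.4 in starved 2, and list lengths differ between libraries.

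Sites of all 6 libraries were wider than fed-only ones, with median widths of 834 and 306 bp, as in the whole series (827 and 346 bp). Of the gene and site pairs of all 6 libraries, 19 were inside the gene, 5 over an end and 21 outside. The fed-only pairs were 20 inside, 1 over an end and 9 outside. Distance to a gene does not assign a site to it, and 23 member sites overlapped the body of another protein-coding gene. Just inside the 5 kb limit lay sites of Slc25a42 (4902 bp, 3 fed and 2 starved libraries), Slc25a15 (4647 bp, fed-only) and Slc25a17 (4579 bp, 1 fed library). Just outside lay sites of all 6 libraries near Slc25a37 (5299 bp), Slc25a33 (5317 bp) and Slc25a10 (5349 bp). The RefSeq table used holds no exons, so sites were not assigned to exons or introns.

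A list of 36 other genes of mitochondrial transport, among them uncoupling proteins, porins, the pyruvate carrier and the calcium uniporter, was described in the same way. Peaks were found at 35, 33 and 35 of these genes in the fed and at 28, 24 and 27 in the starved libraries. A site in all 6 libraries was present at 24 of them, or 66.7%, against 47.7% of all genes. Of their 165 sites, 37 were called in all 6 libraries and 31 were fed-only, where the backgrounds were 29.1% and 17.2% of sites. Among the 37, 4 ranked lower and 1 ranked higher in every starved library, where the backgrounds were 7.37% and 8.51%. The difference between this list and the Slc25 genes was not tested.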

How the data were processed

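CTCF was measured by chromatin immunoprecipitation and sequencing in livers of fed and starved mice (3 libraries each). The authors deposited 1 peak list per library, with position, name and a score per peak whose meaning the lists do not state. The submitters' processing notes name the build mm10 and, without role or order, MACS2, HOMER, BWA 0.7.5a, bedtools 2.17, SAMtools and FastQC. The score served to rank peaks within a list. Only the alternative with a score minimum compared it between lists, by applying the median over all lists to each of them. The members and lists were chosen with earlier results of these data known.

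Positions were made 1-based, and peaks were merged, ranked and assigned to RefSeq GRCm38.p6 genes in Python 3.11.15 with pandas 2.3.3, numpy 2.4.6 and scipy 1.17.1. Presence was tested per site with Fisher's exact test and shared-site rank with an exact permutation test, both two-sided, with Benjamini-Hochberg adjustment over all sites and a threshold of 0.05. The steps were tested on simulated data. Values in each library were given for all fed-only sites, rank-separated sites (up to 6 in each direction), the 8 best-ranked sites of all 6 libraries and 18 carriers named whatever their values. No 2 lists shared more than 4 identical intervals. Alternatives were a score minimum, equal list length, trimmed or more widely merged peaks, other gene windows, a block for the replicate number and the omission of each library in turn. Input libraries were not used here. Single results that fell under these rules are not reported here, though the counts include them.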

Additional observations from a re-analysis of the deposited data

How the results depend on the processing

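With equal list length (23926 peaks each), the fed-only Slc25 sites numbered 0 instead of 29, and the sites that ranked higher in every starved library 1 instead of 2. The backgrounds at that setting were 0.928% of all sites and 7.97% of shared sites. The fed minus starved difference in genes with a peak was -1 instead of 10.3. With peaks at or above the median score, there were 15 fed-only sites, none of them among the 29, 16 sites in all 6 libraries instead of 45, and 1 that ranked higher. With the gene body alone, 24 of 119 sites were in all 6 libraries, 0 ranked higher and the gene difference was 15.3. With 20 kb on either side these were 75 of 277, 7 and 4.67. For both windows the backgrounds were 29.1% of all sites and 8.51% of shared sites. The cause of these shifts was not tested beyond the settings' own construction, which changes the number of peaks or sites considered. Trimming peaks to 200 bp or merging within 500 bp moved no count past 1.5 times. Merging joined 3 of the 29 fed-only sites to neighbours.

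Leaving out each library in turn gave 29 to 43 fed-only sites and 45 to 57 sites in all remaining libraries. The backgrounds over all sites were 17.5 to 27.7% and 29.2 to 37.9%. Between 4 and 8 sites ranked lower, 4 to 6 ranked higher, and the gene difference was 8.83 to 11.3. Fewer libraries make separation easier: without 1 library the share of all shared sites that ranked lower was 12.1 to 13.6%, and that of sites that ranked higher 13.3 to 15.4%. No pairing by replicate number was visible. The deviations of same-numbered libraries correlated at 0.0102, -0.0292 and 0.00941, and those of differently numbered ones at -0.0341 to 0.0243. These values cannot show whether libraries were handled in pairs. With the replicate block, 5 Slc25 sites ranked lower and 5 higher in all 3 pairs (15.5% and 16.4% of all shared sites), and the gene difference was again 10.3. Depth is unknown, so a missing peak is not shown to be missing binding.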
